A study of Mus musculus with 6 samples.

Results

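The genes described here are 10 genes of the endoplasmic reticulum (ER) stress response: Xbp1, Hspa5, Hsp90b1, Calr, Pdia4, Pdia6, Dnajb9, Herpud1, Sdf2l1 and Creld2. They were taken by gene symbol from the annotation of a mouse bead array, on which 15 probes carry these symbols. All 10 genes were among the 10209 genes tested, and 14 of the 15 probes passed the detection filter. The array holds 45281 probes in all, which name 19057 genes.

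The study deleted an enhancer of the Myc gene that NOTCH1 binds, called N-Me, in mice. Total RNA was measured in 3 wild-type C57 BL6 mice given corn oil as vehicle (WT) and in 3 N-Me knockout C57 BL6 mice given tamoxifen in corn oil at 3 mg/kg (KO). Both groups were injected into the abdominal cavity and processed at 40 h. The labels name neither the tissue nor the recombinase that tamoxifen acts on, and they give no age or batch. Genotype and tamoxifen change together, so their effects cannot be told apart. Each group has 3 arrays, each called a biological replicate, and their number limits the precision of every value below. Values are normalized signals on the log2 scale, on which a difference of 1 is a doubling. A gene is called higher or lower where limma's Benjamini-Hochberg adjusted p over all 10209 genes is under 0.05.

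Proteins that are secreted or sit in membranes fold in the ER with the help of chaperones and of enzymes that form disulfide bonds. When unfolded proteins build up, the unfolded protein response is set off by 3 sensors of the ER membrane, IRE1, ATF6 and PERK. IRE1 cuts the Xbp1 mRNA and the RTCB ligase joins the pieces, which gives the active transcription factor. XBP1 and cleaved ATF6 switch on chaperones and degradation factors, and PERK acts through ATF4 and CHOP. In lymphocytes, XBP1 is best known for its need in antibody-secreting plasma cells. The array measured the amount of Xbp1 RNA and not its splicing, and where the probes lie within the transcripts is not given in the sources used here.

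ATF6 and XBP1 are known to bind short promoter elements. The ER stress element, ERSE, is written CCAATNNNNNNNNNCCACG. The related ERSE-II is ATTGGNCCACG, and the core of the unfolded protein response element, UPRE, is GACGTG. These were searched on both strands of the RefSeq promoter windows of build GRCm38.p6, from 250 bases before to 50 bases after each start. The 3 elements did not overlap each other in the 10 windows. An exact ERSE lay in the windows of Hspa5, Hsp90b1, Calr, Pdia6 and Creld2, which is 5 of 10 genes, against 39 of 32851 windows in all (0.119%). ERSE-II lay in the window of Herpud1 and in 12 of all windows (0.0365%). The UPRE core lay in those of Hspa5 and Pdia6 and in 2095 of all windows (6.38%). The 10 genes were picked as ER chaperones and targets of ATF6 and XBP1, so these shares are a description and no test. The stretches that hold these matches are shown 5′ to 3′ along the gene, because they carry the elements named above. Capitals mark the fixed letters of a match, which reads as its reverse complement where it lies on the opposite strand.
Hspa5, chr2:34771924-34772053, plus strand: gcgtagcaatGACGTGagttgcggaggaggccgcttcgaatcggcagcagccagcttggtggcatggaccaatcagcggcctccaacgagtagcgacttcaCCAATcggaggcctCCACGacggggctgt
Hsp90b1, chr10:86705523-86705666, minus strand: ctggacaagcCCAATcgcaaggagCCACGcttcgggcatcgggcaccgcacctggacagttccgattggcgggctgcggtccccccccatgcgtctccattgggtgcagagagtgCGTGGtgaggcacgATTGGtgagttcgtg
Calr, chr8:84847065-84847103, minus strand: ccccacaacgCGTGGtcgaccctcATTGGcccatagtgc
Pdia6, chr12:17266481-17266590, plus strand: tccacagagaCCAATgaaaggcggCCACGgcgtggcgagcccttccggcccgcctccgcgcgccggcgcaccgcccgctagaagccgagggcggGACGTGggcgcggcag
Creld2, chr15:88819510-88819548, plus strand: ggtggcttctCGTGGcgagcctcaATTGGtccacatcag
Herpud1, chr8:94386367-94386397, plus strand: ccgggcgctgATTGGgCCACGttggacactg

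In Hsp90b1, the chaperone GRP94, 2 exact ERSE copies lay at -212 to -194 and at -107 to -89 from the start. The ERSE of Hspa5 lay at -65 to -47 and that of Pdia6 at -98 to -80. After the exact matches were seen, the search was repeated with at most 1 fixed letter differing, which 494 of 32851 windows held (1.5%) and 7 of the 10 genes. This added Pdia4, at -108 to -90 on the opposite strand, and Herpud1, at -18 to 1. Its fixed ends were also searched alone, as CCAAT, found in 37.4% of all windows, and CCACG, found in 32.8%. Each end lay in 9 of the 10 genes, and Xbp1 was without either of them. Dnajb9 held both ends but not at the spacing of the element, and so did Sdf2l1. The stretches of Pdia4 and Dnajb9 are shown because both genes rose, with capitals for the letters that matched.
Pdia4, chr6:47813592-47813630, minus strand: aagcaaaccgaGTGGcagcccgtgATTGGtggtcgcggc
Dnajb9, chr12:44210069-44210186, minus strand: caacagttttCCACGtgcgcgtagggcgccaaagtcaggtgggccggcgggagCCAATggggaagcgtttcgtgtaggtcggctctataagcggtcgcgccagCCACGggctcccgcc

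**Figure D1:**
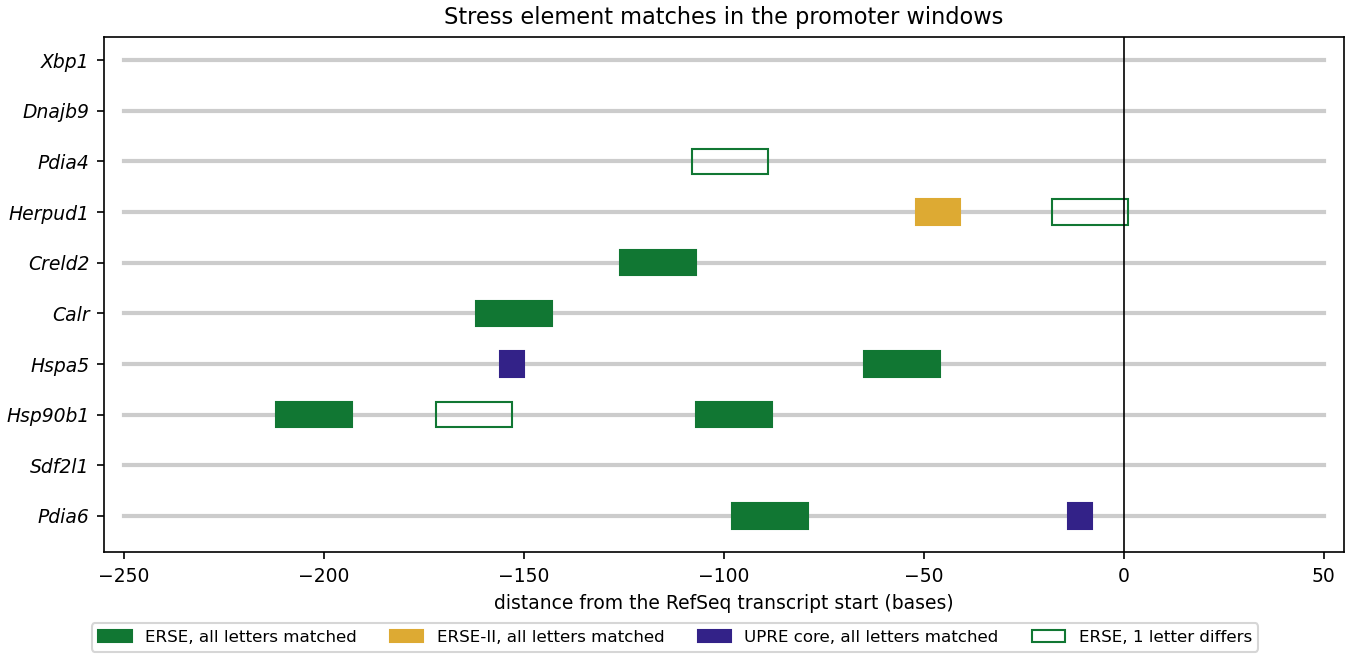
Matches to the stress elements in the promoter window of each of the 10 genes. The horizontal axis is the distance from the RefSeq start in bases, filled boxes are exact matches and open boxes are ERSE matches with 1 letter differing. The windows of Xbp1, Dnajb9 and Sdf2l1 hold none of them.

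Of the 10 genes, 3 rose in KO: the transcription factor Xbp1 (1.64-fold), the ER co-chaperone Dnajb9 (1.60-fold) and the disulfide isomerase Pdia4 (1.45-fold). None fell by limma, nor at an unadjusted p under 0.05 (0 of 10), and 7 did not pass the test, among them the main chaperones Hspa5, Hsp90b1 and Calr. Over all genes tested, 19.7% were called higher and 17.1% lower, so 3 of 10 is near the share of all genes. The fitted difference was above 0 for all 10, with a median of 0.21 against 0.0011 over all genes. In 4 of the 10, every KO array lay above every WT array, which held for 26.1% of all genes. Myc, whose enhancer was deleted, fell by 1.75 ± 0.16 on the log2 scale (standard error, n = 3 and 3, limma adjusted p = 0.000406), from 8.95, 8.75 and 9.04 in WT to 7.42, 6.95 and 7.11 in KO. Within groups, the arrays correlated at 0.984 to 0.993 over genes, and between groups at 0.950 to 0.969.

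Xbp1 gave 11.23, 11.21 and 11.07 on WT arrays 1 to 3 and 11.67, 12.02 and 11.97 on KO arrays 1 to 3. All KO arrays were above all WT arrays, and KO array 1 was the lowest of its group. The WT mean was 11.17 ± 0.09 (SD, n = 3), against a KO mean of 11.89 ± 0.19 (SD, n = 3). The difference was 0.71 ± 0.14 (standard error, limma adjusted p = 0.00514), with a 95% interval of 0.40 to 1.03. An exact 2-sided permutation of the 6 arrays gave p = 0.1, the smallest that 20 assignments allow. Before normalization, the raw intensities ran from 2272.5 to 2662.6 in WT and were 2788.4, 4655.0 and 3992.2 in KO, so the order of the groups was already there. Xbp1 passed the test in each of 15 alternative settings.

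Hspa5 encodes BiP, the ER HSP70 that holds unfolded proteins and keeps the sensors inactive. Its signals were 6.58, 6.14 and 6.22 in WT and 6.12, 6.48 and 6.75 in KO. The groups overlapped, since the highest WT array lay above 2 of the 3 KO arrays. The difference was 0.14 ± 0.19 (limma adjusted p = 0.610), with a 95% interval of -0.30 to 0.57 that holds both a fall and a rise. Only 1 probe stands for this gene, and it was dim, at raw intensities of 159.4 to 211.0 against array medians of 121.8 to 132.4.

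Hsp90b1, the ER HSP90, gave 12.07, 12.39 and 12.16 in WT and 12.01, 12.70 and 12.19 in KO. KO array 2 was the highest and KO array 1 the lowest of all 6, so the KO arrays enclosed the WT arrays. The difference was 0.09 ± 0.19 (limma adjusted p = 0.731, 95% interval -0.34 to 0.53). Calr, the lectin chaperone calreticulin, gave 9.45, 9.49 and 9.55 in WT and 9.85, 9.73 and 9.50 in KO, where array 3 fell among the WT arrays. Its difference of 0.20 ± 0.13 did not pass (limma adjusted p = 0.277, 95% interval -0.11 to 0.50). A second Calr probe was not detected on any array and was left out.

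The protein disulfide isomerases Pdia4 (ERp72) and Pdia6 form and reshuffle disulfide bonds. Pdia4 gave 9.18, 9.40 and 9.14 in WT and 9.50, 9.997 and 9.82 in KO. Every KO array was above every WT array, with KO array 1 nearest to them. This separation came with normalization, since the raw intensity of KO array 1 (699.5) lay within the WT range of 660 to 815.4. The difference was 0.53 ± 0.16 (limma adjusted p = 0.0286, 95% interval 0.17 to 0.89). It missed the threshold without WT array 1 (0.50, adjusted p = 0.0906), WT array 3 (0.48, 0.0958), KO array 2 (0.42, 0.0897) or KO array 3 (0.51, 0.0823), and with arrays scaled to a common median (0.45, 0.125). Pdia6 gave 6.29, 6.44 and 6.48 in WT and 6.36, 6.43 and 6.46 in KO. The KO arrays lay within the WT range, and the difference was 0.01 ± 0.12 (limma adjusted p = 0.944, 95% interval -0.26 to 0.28). A further Pdia6 probe gave 0.08 ± 0.16 (adjusted p = 0.745 among all 19082 kept probes). Both Pdia6 probes were dim, at raw intensities of 170.4 to 206.8 and 161.6 to 222.8 against array medians of 121.8 to 132.4. Folds of dim genes are understated, so these values do not show that Pdia6 was unchanged.

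Pdia4 and Pdia6 are both isomerases, and their intervals overlap between 0.17 and 0.28. The difference between the responses of these genes was not tested.

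Dnajb9 encodes ERdj4, a J protein that works with BiP. It gave 8.65, 8.55 and 8.38 in WT and 8.91, 9.31 and 9.40 in KO. The groups did not overlap, and KO array 1 was again the lowest of its group. The difference was 0.68 ± 0.16 (limma adjusted p = 0.0117, 95% interval 0.32 to 1.04), and it passed the test in each of the 15 alternative settings, with adjusted p up to 0.0497. A further, dimmer Dnajb9 probe gave 6.45, 6.38 and 6.42 in WT and 6.45, 7.38 and 7.01 in KO. There KO array 1 (6.452) was level with the highest WT array (6.446), and the difference of 0.53 ± 0.22 did not pass among all kept probes (limma adjusted p = 0.0937), of which 15.7% were called higher.

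Herpud1 encodes a membrane protein that helps assemble the complex for ER-associated degradation, which removes misfolded proteins. It gave 12.10, 11.89 and 11.99 in WT and 12.23, 12.36 and 12.48 in KO. All KO arrays were above all WT arrays. This separation came with normalization, since the raw intensity of KO array 1 (4041.8) lay below the WT range of 4110.5 to 4713.7. The difference of 0.36 ± 0.13 missed the threshold (limma adjusted p = 0.0539), although its own 95% interval ran from 0.071 to 0.65. It passed in 7 of 15 alternative settings, such as without KO array 1 (0.42, adjusted p = 0.0384) and without background correction (0.35, 0.0206). A further Herpud1 probe gave the same difference, 0.36 ± 0.15 (adjusted p = 0.102 among kept probes).

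Sdf2l1, part of a BiP and J protein complex, gave 9.36, 9.31 and 9.03 in WT and 9.17, 9.33 and 9.37 in KO. The groups overlapped, and the difference was 0.05 ± 0.14 (limma adjusted p = 0.782, 95% interval -0.26 to 0.37). Creld2, a secreted ER stress protein with isomerase activity, gave 9.49, 9.53 and 9.30 in WT and 9.37, 9.84 and 9.79 in KO. KO arrays 2 and 3 lay above the WT arrays and KO array 1 among them. The difference was 0.23 ± 0.16 (limma adjusted p = 0.291, 95% interval -0.13 to 0.58), and a further probe gave 0.17 ± 0.26.

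**Figure D2:**
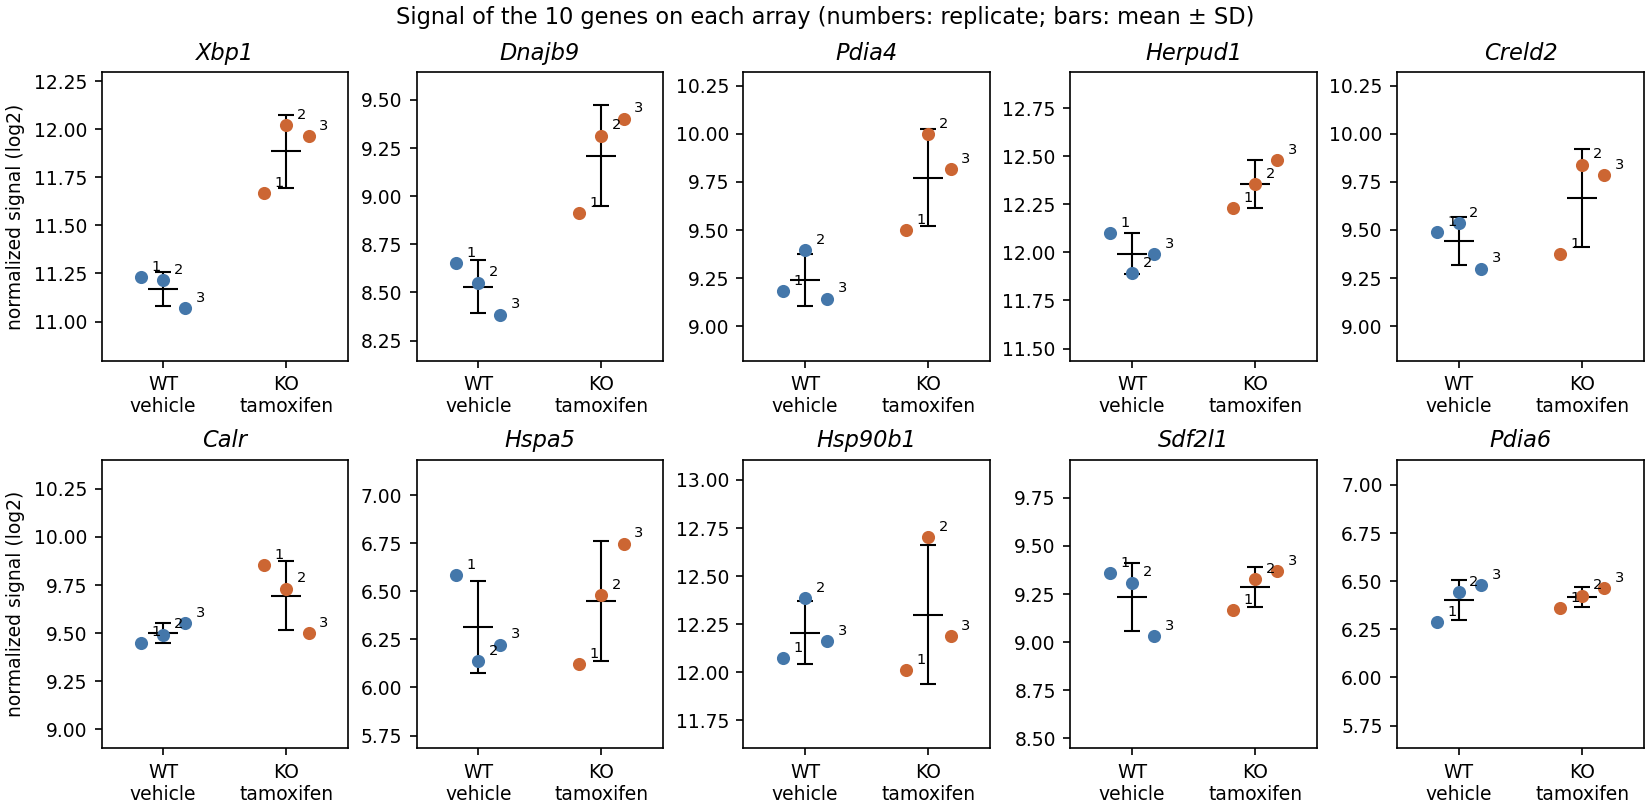
Normalized log2 signal of each of the 10 genes, with a point for each array (WT vehicle blue, KO tamoxifen orange, replicate number beside it) and bars for the mean and SD of 3 arrays. Each panel has its own axis range. Xbp1, Dnajb9, Pdia4 and Herpud1 have all KO arrays above all WT arrays, and KO array 1 is the lowest KO array in every panel but that of Calr.

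The KO arrays were not alike for these genes. The median of the 10 deviations from the WT mean was 0.096 on KO array 1, 0.38 on KO array 2 and 0.39 on KO array 3, against -0.094 to 0.053 on the WT arrays. On KO array 1, 5 genes lay above their WT mean and 5 below, while on KO array 2 all 10 lay above. KO array 1 was the lowest KO array for 9 of the 10 genes, against 35.5% of all genes tested. Without it, the median difference of the 10 genes was 0.34 and not 0.21, and 4 genes were called higher, against 2092 of all 10209. This array was singled out for its low values, so a larger median without it follows from that choice and is no test.

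**Figure D3:**
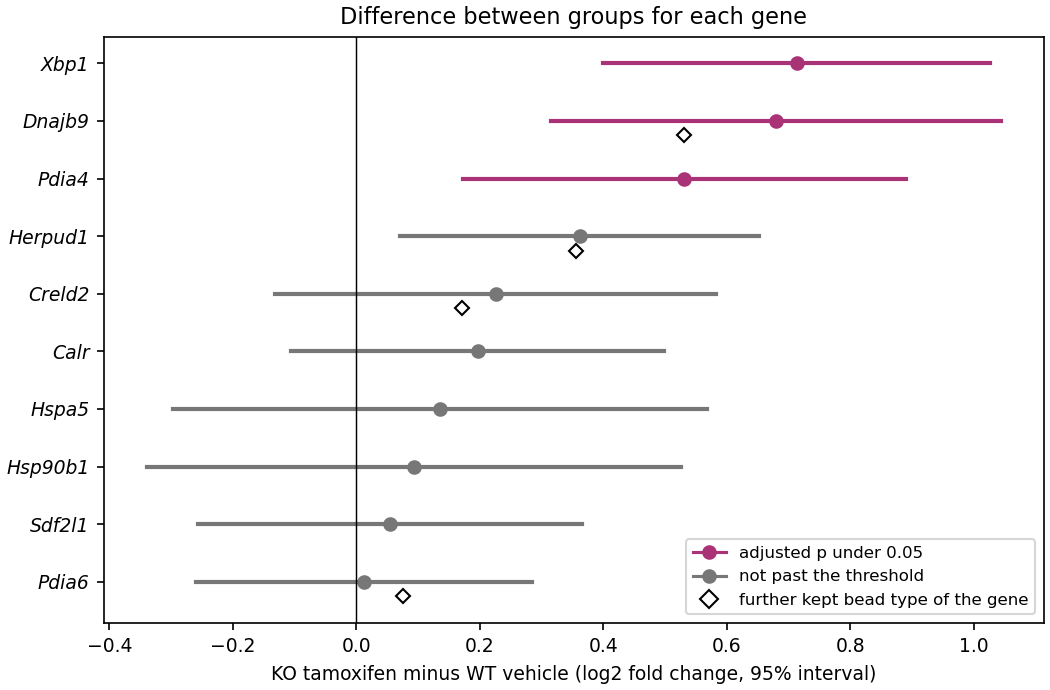
Difference between KO tamoxifen and WT vehicle for each of the 10 genes, as log2 fold change with its 95% interval from limma. Filled purple points passed an adjusted p of 0.05, grey points did not, and open diamonds are further kept probes of the same gene. All 10 points lie above 0, and the intervals of 6 genes cross it.

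Markers of other cell types also differed between the arrays. Counts of called markers stand against 19.7% higher and 17.1% lower over all genes tested. These are bulk samples, in which fewer cells of a type and less RNA per cell cannot be told apart. The mean log2 signal of 6 neutrophil markers was 8.66, 9.32 and 9.07 on the WT arrays and 8.53, 10.82 and 10.43 on the KO arrays, so KO array 1 was low here too. None of the 6 was called by limma, nor at an unadjusted p under 0.05 (0 of 6), and 6 were called without KO array 1. With the replicate number as a block, 3 were called, Elane (adjusted p = 0.0169), Mpo (0.0291) and Camp (0.0446). For B cells, 2 of 6 markers were tested, with means of 7.61 to 8.41 in WT and 8.58, 9.83 and 9.51 in KO. Of these, Cd22 rose (1.93 ± 0.19, limma adjusted p = 0.000605), and the defining marker Pax5 was not detected on any array.

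Plasma cell markers bear on Xbp1 most closely, since these cells express it strongly. Of 8, 4 were tested, with means of 8.91 to 9.02 in WT and 8.58, 9.44 and 9.04 in KO. Irf4 (-0.62 ± 0.16) and Sdc1 (-0.58 ± 0.13) fell (limma adjusted p = 0.0161 and 0.0103). The call of Irf4 was lost without WT array 3 (0.0581) or KO array 3 (0.0586). A further Sdc1 probe gave -0.56 ± 0.23 and did not pass among kept probes (limma adjusted p = 0.0966). The defining markers Jchain, Prdm1 and Derl3 were not detected on any array. Mzb1, which encodes an ER protein of B and plasma cells, gave 7.30, 7.48 and 6.60 in WT and 6.87, 10.35 and 9.04 in KO and was not called (1.62 ± 0.72, limma adjusted p = 0.112). Without KO array 1 it was called higher (2.57, adjusted p = 0.00226), while without KO array 2 its difference was 0.82 (0.302). It was named after its values were seen.

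All 3 tested macrophage and dendritic cell markers, of 6 listed, rose, with means of 9.94 to 10.25 in WT and 10.72 to 11.42 in KO. Among them were Lyz2 (1.19 ± 0.22) and Csf1r (0.97 ± 0.22), with limma adjusted p = 0.00437 and 0.0101. A further Lyz2 probe gave 0.78 ± 0.45 and did not pass among kept probes (limma adjusted p = 0.217). That of Csf1r passed (1.00 ± 0.12, 0.0014). Of 3 erythroid markers tested, of 6 listed, 2 rose, with means of 12.88 to 13.20 in WT and 13.51 to 13.83 in KO. Of 6 stromal and endothelial markers, 4 rose, with means of 7.49 to 7.76 and 8.04 to 8.47. Without WT array 3, 1 of these stromal markers was called.

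T cell markers had means of 11.25 to 11.38 in WT and 10.72 to 10.80 in KO over 9 of 12. Of them, Rag1, which cuts DNA at antigen receptor genes, fell by 2.80 ± 0.20 and Ptcra, the pre-T receptor chain, fell by 1.94 ± 0.20 (limma adjusted p = 0.000224 and 0.000667). Without background correction the differences were -1.76 and -1.005, both called. The other 7 were not called, with differences from -0.17 for Cd8b1 to 0.12 for Thy1. The lower means in KO thus came mainly from Rag1 and Ptcra. Cd8a and Rag2 were not detected. The part of these cell types in the values of the 10 genes was not tested.

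Genes whose signal followed Xbp1 most closely over the 6 arrays were Nkx2-5 (Pearson r = 0.997), Ifi27l2a (0.997) and Unc93b1 (0.994). The groups separate on these genes, so r holds the group difference too, and 1063 of 10199 genes reached at least 0.9. Of the 3, the interferon-induced Ifi27l2a rose most (2.14 ± 0.23, limma adjusted p = 0.000826). Nkx2-5 was dim, at 5.21 to 5.33 in WT and 5.59 to 5.79 in KO. Those values are near the undetected WT signals of Chac1, which were 4.81 to 5.27. Among the 10 genes, r with Xbp1 was 0.98 for Dnajb9, 0.96 for Pdia4, 0.93 for Herpud1 and 0.80 for Creld2, but 0.49 for Hspa5 and 0.12 for Pdia6. The genes most like Hspa5 were Tenm4 (0.991), Zfp768 (0.982) and Zfp658 (0.965), none of them called, and 22 of 10199 genes reached 0.9. Tenm4 (4.94 to 5.44) and Zfp768 (5.19 to 5.81) were dim too. All these correlations are descriptions of 6 arrays, without a test.

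Around the 10 genes, the medians of lists for other steps of ER function ran from -0.07 to 0.02. A common direction was not tested. Over all genes tested, 19.7% were called higher and 17.1% lower, and the counts of all lists below stand against these shares. Of 39 other ER chaperones and folding enzymes, 32 were tested, of which 6 rose and 3 fell, with a median of 0.02. Those counts are near the shares of all genes or under them. The isomerase Pdia5 (1.05 ± 0.15, limma adjusted p = 0.0019), the vitamin K reductase Vkorc1 (0.88 ± 0.24, 0.0211) and the Creld2 relative Creld1 (0.83 ± 0.14, 0.00303) rose. Emc1, of the complex that inserts membrane proteins, fell by 0.86 ± 0.12 (0.00183), while a further Emc1 probe gave -0.35 and did not pass (0.421). The call of Vkorc1 was lost without WT array 1 (0.0675), WT array 3 (0.0799), KO array 2 (0.0550) or KO array 3 (0.0759), and also when scaled to a common median (0.0528) or with no detection filter (0.0534). Named after their values were seen, the abundant isomerases Pdia3 (0.07) and P4hb (-0.06) and the HSP110 relative Hyou1 (-0.15) were not called, and Canx and Manf were not detected.

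For ER-associated degradation, 21 of 28 genes were tested, of which 4 rose and 2 fell, with a median of -0.07. The ubiquitin ligase Rnf5 rose (0.75 ± 0.18, limma adjusted p = 0.0114), as did Fam8a1 of the HRD1 ligase complex (0.56 ± 0.13, 0.0124), whose further probe gave 0.05 and whose call was lost with the mean of its probes (0.114). The ubiquitin-conjugating enzymes Ube2j2 (-0.58 ± 0.19, 0.0380) and Ube2j1 (-0.56 ± 0.19, 0.0467) fell. Ube2j2 lost its call without WT array 1 (0.129), WT array 3 (0.112), KO array 2 (0.0768) or KO array 3 (0.121). Ube2j1 lost its call without WT array 1 (0.110), 2 (0.104) or 3 (0.0998) or KO array 1 (0.109) or 3 (0.148). With no detection filter, neither was called (0.0722 and 0.0875), and Ube2j1 was not called when scaled to a common median (0.0780).

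For translocation into the ER and N-glycosylation, 45 of 47 genes were tested. Of these, 31 had a difference below 0, against 5097 of 10209 over all genes, and the median was -0.05. None of the 45 rose by limma (1 at an unadjusted p under 0.05) and 3 fell (6 at an unadjusted p under 0.05). The 3 that fell by limma were Srp9 of the signal recognition particle (-0.61 ± 0.13, limma adjusted p = 0.00867) and the sugar donor enzymes Alg5 (-0.54 ± 0.15, 0.0248) and Dpm1 (-0.51 ± 0.15, 0.0269). Alg5 fell on 2 further probes as well (adjusted p = 0.0117 and 0.00558 among kept probes), but its brightest probe lost its call without WT array 1 (0.0946), WT array 3 (0.0584) or KO array 2 (0.0778). A further Dpm1 probe fell too (-0.72 ± 0.18, limma adjusted p = 0.0156 among kept probes), and the mean of its probes was called (-0.62, 0.00894). On its brightest probe, Dpm1 lost its call without WT array 2 (0.0821), WT array 3 (0.0551), KO array 2 (0.0608) or KO array 3 (0.0915). It was also lost with normexp and an offset of 50 (0.0660), without background correction (0.105), with the deposited table (0.105), scaled to a common median (0.0624) and with a trended robust variance (0.0515).

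For ER to Golgi traffic, 29 of 33 genes were tested, of which 2 rose and 4 fell, with a median of -0.02. The COPI subunit Arcn1 (-0.91 ± 0.22, limma adjusted p = 0.0136), the COPII subunit Sec24b (-0.89 ± 0.24, 0.0190) and the cargo receptor Tmed2 (-0.74 ± 0.19, 0.0155) fell. Sec24d, a relative of Sec24b, rose (0.74 ± 0.23, 0.0375) but was detected on only 2 of 3 WT arrays. Arcn1 lost its call without WT array 3 (0.0556), and Tmed2 without WT array 1 (0.0599) or KO array 3 (0.0534). Sec24b lost it without WT array 1 (0.0718), WT array 3 (0.0514), KO array 2 (0.0597) or KO array 3 (0.0702). Sec24d kept its call only without KO array 1 among the single omissions, with adjusted p from 0.0647 without WT array 3 to 0.117 without KO array 3 in the others. It was lost too without background correction (0.0725), with the deposited table (0.0728) and with no detection filter (0.0850).

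Among sensors and transducers of the unfolded protein response, 16 of 21 genes were tested, of which 1 rose and 1 fell, with a median of 0.01. The ligase Rtcb, which joins the cut Xbp1 mRNA and also the pieces of spliced tRNA, gave 12.02, 11.77 and 11.78 in WT and 10.90, 11.18 and 11.02 in KO. It fell by 0.82 ± 0.13 (limma adjusted p = 0.00277), on every KO array below every WT array, while Xbp1 itself rose. The membrane-bound factor Creb3l2 rose (0.69 ± 0.15, 0.00814). Named after their values were seen, the sensor genes Ern1, which encodes IRE1 (0.11 ± 0.19, 0.686), and Eif2ak3, which encodes PERK (-0.22 ± 0.17, 0.351), were not called, and Atf6 was not detected. With other background corrections, 3 genes of this list were called higher.

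The list for the PERK arm and CHOP had 7 of 16 tested genes of 18 higher by limma, against 19.7% of all genes tested. None was lower (0 at an unadjusted p under 0.05), and the median was 0.51. The count and the median include Chac1, which was tested only because it was detected on the KO arrays. The activity of PERK was not measured, and whether PERK acts on these genes here was not tested. The stress factor Ddit3, which encodes CHOP (1.39 ± 0.20, limma adjusted p = 0.00173), and the asparagine synthetase Asns (1.18 ± 0.18, 0.00215) rose. Chac1, a glutathione-degrading enzyme and CHOP target, was detected on 0 WT and 3 KO arrays. It passed the detection filter only through the KO arrays, so its call (limma adjusted p = 0.00229) is not independent of that filter. Against the lowest detected signal, its mean in KO was higher by at least 6.04-fold. It gave 6.68, 8.41 and 8.75 in KO, with array 1 the lowest. The bound for Chac1 was 9.36-fold without KO array 1, 5.15-fold without KO array 2 and 4.58-fold without KO array 3. Its fitted difference, 2.95 here and 3.58 without KO array 1, was 1.49 without background correction (0.00319). The cystine transporter Slc7a11 rose (1.07 ± 0.36, 0.0469), but not without WT array 2 (0.113), WT array 3 (0.155) or KO array 2 (0.104). It was detected on 2 of 3 WT arrays, and its call was also lost without background correction (0.47, 0.0639), with the deposited table (0.0640), scaled to a common median (0.0528) and with no detection filter (0.119). Without WT array 3, 3 genes of this arm were called, and without KO array 1, 9. Whether this arm and the 10 genes differ in response was not tested.

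Heat shock genes, which HSF1 and not the ER sensors control, had 3 of 13 tested genes of 17 higher by limma. None was lower (2 at an unadjusted p under 0.05), and the median was -0.17. Those 2, Hspd1 (-0.37) and Hspe1 (-0.43), encode mitochondrial and not cytosolic chaperonins. The HSP110 gene Hsph1 rose (0.93 ± 0.16, limma adjusted p = 0.00298). Chordc1 (0.35 ± 0.12, 0.0426) and Dnajb1 (0.34 ± 0.11, 0.0476) were near the threshold. Leaving out any of the 6 arrays ended the call of Dnajb1 (0.0753 without WT array 2 to 0.133 without WT array 1), and leaving out any but KO array 1 ended that of Chordc1 (0.0777 without KO array 2 to 0.126 without WT array 1). Both were also lost when scaled to a common median (0.278 and 0.325).

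**Figure D4:**
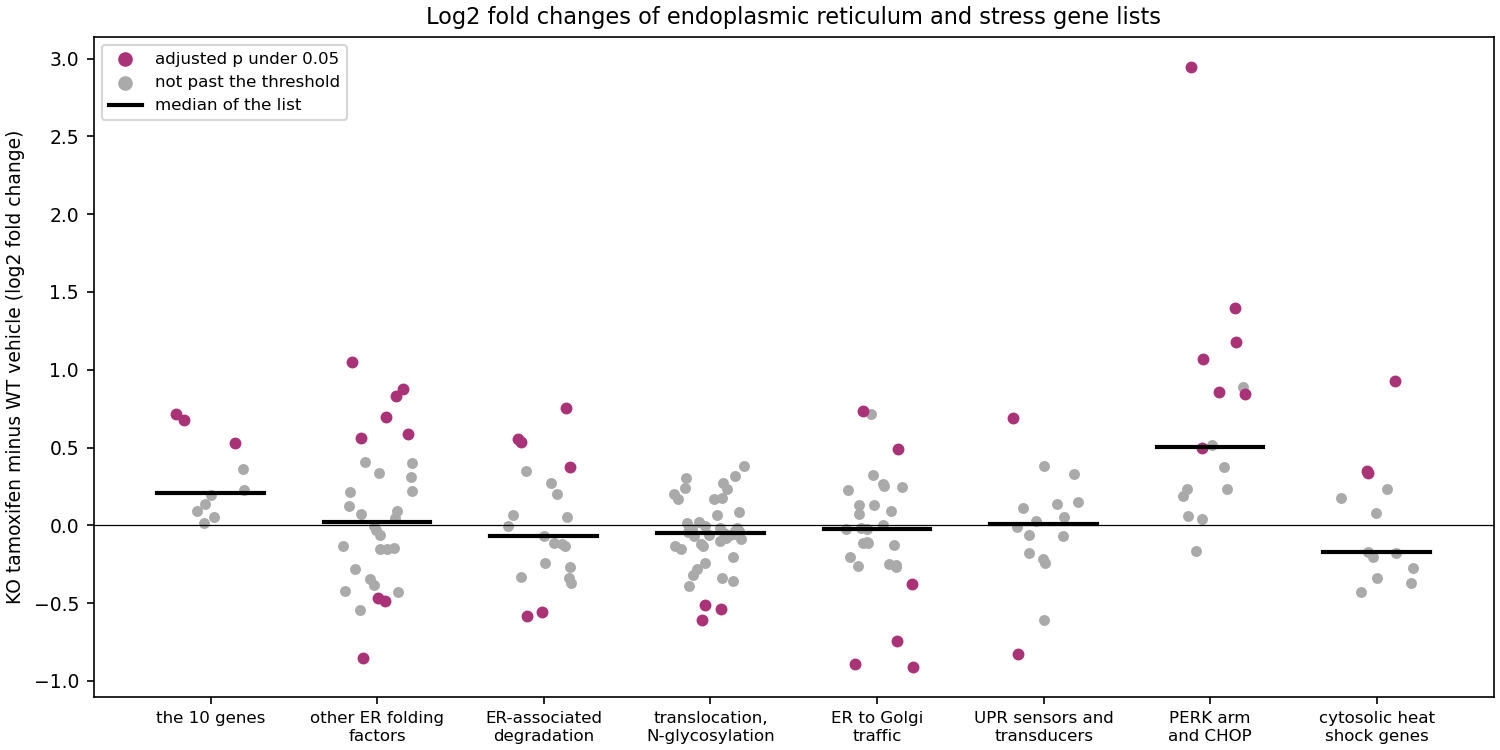
Log2 fold change of each tested gene, KO tamoxifen minus WT vehicle, by list. Purple points passed an adjusted p of 0.05, grey points did not, and black bars are the list medians. These run from -0.17 for the heat shock genes, labelled cytosolic, to 0.51 for the PERK arm, with 0.21 for the 10 genes.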

How the data were processed

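RNA of 6 mice was measured on Illumina bead arrays, with 1 array a mouse. Per the file headers, each array has an intensity and a detection p-value per probe in the raw table as deposited. Array medians of 121.8 to 132.4 show no normalization between arrays. How beads were summarised is not given in the sources used here. A second deposited table, of log2 values, equals the quantile-normalized log2 raw intensities within 5e-05, uncentred, with array medians of 7.01, and was used as an alternative. All value columns were used.

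Intensities were normalized by neqc of limma 3.58.1 (R 4.3.3), with negative controls inferred from the detection p-values and an offset of 16, then quantile normalized and log2 transformed, so folds of dim genes are understated. Probes were kept where 3 or more of the 6 arrays had a detection p under 0.05 (19082), and the brightest stood for each gene (10209 genes). Probe symbols came from the platform annotation, with 34885 probes of 1 symbol, 18 of several and 10378 of none. Of these, 34807 matched RefSeq by Entrez identifier. Groups were compared with lmFit and eBayes, group being the only term, at a Benjamini-Hochberg adjusted p under 0.05, and the procedure was tested on simulated data. Errors of differences are standard errors. Detected arrays of 18215 to 19486 probes set what can be measured. The bound for Chac1 is taken against the lowest detected signal.

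The named genes are the 10 with all their probes, up to 4 called genes with the largest change in each of 14 lists (or 3 with the smallest p), Myc, and the 3 genes most correlated with Xbp1 and with Hspa5. For marker lists, some are given by count only. The members and lists were chosen with earlier results of these data known. Deviations of samples with the same replicate number correlated at 0.17, 0.12 and -0.08 over genes. The main fit used no pairing, but these values cannot exclude one. Promoter sequences are RefSeq's, and all 10 genes matched. A planned comparison of protein ends was not made, since no protein sequences were used here. Figures were drawn with matplotlib 3.10.9 in Python 3.11.15.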

Additional observations from a re-analysis of the deposited data

How the results depend on the processing

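Across 15 alternatives (other background corrections, scaling, the deposited log2 table, other detection filters, the mean of a gene's probes, a replicate block, another variance model and each array left out), Xbp1 stayed between 0.58 and 0.82 and Dnajb9 between 0.56 and 0.83, both called in all 15. Pdia4 was called in 10, and with arrays scaled to a common median it gave 0.45 (limma adjusted p = 0.125). Herpud1 was called in 7, at 0.36 with normexp and an offset of 50, without a detection filter, with detection on all 6 arrays and with a trended robust variance, and at 0.35 without background correction and with the deposited table. Scaling turned the uncalled values of Hsp90b1 (-0.057) and Sdf2l1 (-0.018), and moved the median of all genes to -0.05. The cause was not tested. Hspa5, Hsp90b1, Calr, Pdia6, Sdf2l1 and Creld2 were called in none of the 15. Without background correction, several called changes shrank by over 1.5 times on the log2 scale, to 0.56 for Pdia5, 0.40 for Creld1, 0.34 for Creb3l2, -0.57 for Arcn1 and -0.38 for Sdc1, all still called.

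Leaving out each array in turn gave 0.65 to 0.82 for Xbp1, 0.58 to 0.83 for Dnajb9, 0.42 to 0.67 for Pdia4, 0.30 to 0.42 for Herpud1, 0.14 to 0.37 for Creld2, 0.12 to 0.29 for Calr, -0.014 to 0.30 for Hspa5, -0.11 to 0.24 for Hsp90b1, -0.046 to 0.12 for Sdf2l1 and -0.046 to 0.050 for Pdia6. The sign of Hspa5 turned without KO array 3 (-0.014), of Hsp90b1 without KO array 2 (-0.11), of Sdf2l1 without WT array 3 (-0.046) and of Pdia6 without WT array 1 (-0.046) or KO array 3 (-0.011). The median of the 10 genes ran from 0.16 to 0.34. Over all genes, 1342 to 2092 were called higher and 1143 to 1837 lower, against 2015 and 1748, with 1342 higher and 1144 lower without WT array 3 and 1143 lower without WT array 1. These fits have fewer arrays.

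Over all alternatives, genes called lower among other ER folding factors ranged from 2 to 5 (against 3), in ER-associated degradation from 0 to 2 (against 2), in translocation and N-glycosylation from 2 to 5 (against 3) and in ER to Golgi traffic from 1 to 5 (against 4). Genes called higher ranged from 4 to 8 among other ER folding factors (against 6), from 2 to 4 in ER-associated degradation (against 4), from 1 to 3 in ER to Golgi traffic (against 2), from 1 to 3 among sensors (against 1), from 3 to 9 in the PERK arm (against 7) and from 1 to 3 among heat shock genes (against 3), of which 0 to 2 were called lower (against 0). Among markers, genes called higher ranged from 0 to 6 for neutrophils (against 0), from 1 to 5 for stroma (against 4), from 0 to 1 for plasma cells (against 0) and from 1 to 2 for B cells (against 1) and erythroid cells (against 2). The median of other ER folding factors ran from -0.08 to 0.10.

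With the replicate number as a block, 2016 genes were called higher and 1697 lower, 3 of them among the 10 genes. The block ended the calls of Chordc1 (adjusted p = 0.0713) and Dnajb1 (0.0807) among the genes named, and added those of Elane (0.0169), Mpo (0.0291) and Camp (0.0446).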
